A study of Mus musculus with 7 samples.

Results

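The transcripts described here encode Myc itself and 8 proteins that share its DNA sites, oppose it or work with it, measured in embryonic mouse hearts that lacked or carried Myc. The genes were Myc, Mxd1, Mxd4, Mxi1, Mga, Mlxip, Zbtb17, Ruvbl1 and Ruvbl2, 9 of the 7413 genes that could be named on the array. They were found by number: a target identifier with 1 or 2 leading zeros after its prefix carries the NCBI mouse Gene ID, and 93.3% of such numbers were Gene IDs in the reference gene table. A target is a bead-bound oligonucleotide on the BeadChip. The genes had 11 targets of 24048, since Mlxip and Ruvbl1 had 2 each.

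The samples were 4 Myc-null and 3 wild-type hearts, each on its own array, placed at E13.5 (days of embryonic development) by their titles and in the window E12.5 to E15.5 by another label. Titles mark the groups as KO and WT, and the genotype label, the same on all samples, names both Myc-null and wild type. The labels give neither the Myc allele, nor a Cre line, strain or litter, nor do they say whether hearts were pooled, so p-values measure the spread between these 7 samples only. The protocols name cardiac myocyte RNA but describe dissected hearts put into Trizol, and a free-text label about embryos before genome activation goes against all other labels. Of 18 cardiac muscle markers listed, 6 could be named on the array and 5 were measurable, among them Myh6, Myh7 and Myl7. Blood genes (5 of 10 listed, all globins) were measurable on the same arrays. In such bulk RNA, fewer cells of a type and less RNA per cell cannot be told apart.

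Myc drives growth and cell division by binding the DNA sequence CACGTG (the E-box) together with its partner Max. The Mxd proteins, Mxi1 and Mga also pair with Max and occupy the same sites, where Mxd proteins and Mxi1 recruit Sin3 and histone deacetylases and so oppose Myc. Mlxip (MondoA) pairs with the related protein Mlx and responds to glucose metabolites. Zbtb17 (Miz-1) is a zinc finger activator that Myc turns into a repressor, and Ruvbl1 and Ruvbl2 are paired ATPases of chromatin remodelling complexes that also bind Myc. In the embryonic heart, Myc family proteins are known for supporting the proliferation of muscle cells.

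Because the network reads E-boxes, the promoter windows of its own genes were searched for CACGTG, which reads the same on both strands. RefSeq windows of 300 bases (250 before and 50 after the start site, build GRCm38.p6) were given for 8 of the 9 genes, 11 windows in all. Only the Mxd4 window held the motif, so 1 of 8 genes, against 8.1% of the 27025 genes with a window and 11.9% of 2741 such genes measurable in these hearts. The Mxd4 window and that of Zbtb17, the gene with the smallest p below, are shown 5′ to 3′ on the coding strand, with CACGTG in capitals where it occurs.
Mxd4, chr5:34187661-34187960, minus strand: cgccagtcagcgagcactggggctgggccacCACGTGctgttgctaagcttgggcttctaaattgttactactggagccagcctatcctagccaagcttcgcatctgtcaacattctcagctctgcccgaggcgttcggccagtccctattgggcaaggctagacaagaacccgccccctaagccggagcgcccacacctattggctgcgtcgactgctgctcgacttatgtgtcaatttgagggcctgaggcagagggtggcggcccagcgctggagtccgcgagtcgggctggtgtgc
Zbtb17, chr4:141444423-141444722, plus strand: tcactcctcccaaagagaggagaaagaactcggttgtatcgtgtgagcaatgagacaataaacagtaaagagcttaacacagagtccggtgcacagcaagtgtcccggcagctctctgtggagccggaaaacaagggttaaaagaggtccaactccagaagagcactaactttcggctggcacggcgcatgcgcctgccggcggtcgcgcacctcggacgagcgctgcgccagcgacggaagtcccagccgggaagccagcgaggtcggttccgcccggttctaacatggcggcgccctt
The Mxd4 motif begins 219 bases before the start site, and the Zbtb17 window has no CACGTG. A match in a window is a description and not evidence of binding.

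Of the 9 genes, 6 were bright enough to test, and 0 of these passed between the genotypes. Zbtb17 was the 1 member with an unadjusted p under 0.05, which 5.4% of all tested targets had. All 4 of its Myc-null arrays lay below all 3 wild-type arrays. Groups were apart, in either direction, for 7.06% of all tested targets. Mxi1 and Mga had higher Myc-null means and Mxd4 a lower one, by amounts within their spread between arrays. For Ruvbl1 and Ruvbl2 the log2 differences were between -0.13 and 0.09. Myc, Mxd1 and Mlxip were not detected on any array (detection score under 0.99).

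The arrays detected between 35.7% and 40.3% of targets each (detection score of at least 0.99), and 9441 targets detected on 3 or more arrays entered one limma fit with Benjamini-Hochberg adjustment over all of them. It called 0 targets (0% of those tested) at an adjusted p under 0.05, with a smallest adjusted p of 0.764, and 510 (5.4%) had an unadjusted p under 0.05. Of these, 322 had higher Myc-null means (63.1%), a share that was 44.3% after quantile normalization, 41.8% after median scaling and 52.9% after neqc. The wild-type 3 array stood apart, with a median correlation across targets of 0.935 with the other arrays (0.964 to 0.986 for the others), and its 18S ribosomal RNA target read 2682 there, 1523 on Myc-null 2 and 702 to 914 on the other 5 arrays. All arrays lay on 1 BeadChip, Myc-null at positions E to H and wild-type at A to C, so chip position and genotype cannot be told apart.

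The Myc target found by the rule lay below background in every heart of either genotype, so it gives no check of the genotype labels. A target with the same number but no leading zero was not read as Myc, since only 10.3% of such numbers were Gene IDs in the reference table. The Myc target found by the rule had raw signals of 79.5, 81.4, 90.9 and 79.8 on the Myc-null arrays. On the wild-type arrays they were 94.2, 85.1 and 105.2. The background that the deposited normalization subtracted was 105, 106, 108 and 98.3 on the Myc-null arrays, and 113, 111 and 109 on the wild-type arrays, above the Myc raw signal each time. Wild-type 3 gave the highest reading. The detection score of Myc, which is 1 minus the detection p-value, ran from 0.016 to 0.093 in Myc-null hearts and from 0.034 to 0.414 in wild-type hearts. The normalized signal was -22.9 ± 2.91 in Myc-null hearts (SD, n = 4) and -18.0 ± 14.4 in wild-type hearts (SD, n = 3), with an exact 2-sided permutation p of 0.6, where 35 splits allow no p below 0.0286. A loss of Myc RNA from Myc-null hearts was therefore not detectable with this target. Whether its oligonucleotide falls inside or outside the stretch removed from Myc is not known here.

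Mxd1, an antagonist best known from differentiating cells, came closest to detection among the silent targets. Its detection scores were 0.902, 0.738, 0.591 and 0.592 in Myc-null hearts, against 0.889, 0.836 and 0.678 in wild-type hearts. The groups overlapped and all 7 values were under the threshold of 0.99. The normalized signal was 7.93 ± 6.37 in Myc-null (SD, n = 4) and 14.7 ± 8.60 in wild-type hearts (SD, n = 3; exact permutation p = 0.229), at most 20.6 on any array.

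Mlxip had 2 targets, and neither was detected on any array. Target 1 read -28.7 ± 11.6 in Myc-null (SD, n = 4) and -24.3 ± 17.8 in wild-type hearts (SD, n = 3; exact permutation p = 0.629). Target 2 read -6.43 ± 8.79 in Myc-null (SD, n = 4) and -2.64 ± 2.40 in wild-type hearts (SD, n = 3; exact permutation p = 0.514). The targets thus gave the same answer on detection, with highest scores of 0.186 and 0.595. Of all 24048 targets, 55.1% were likewise detected on 0 arrays, against 4 of the 11 described here.

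**Figure D1:**
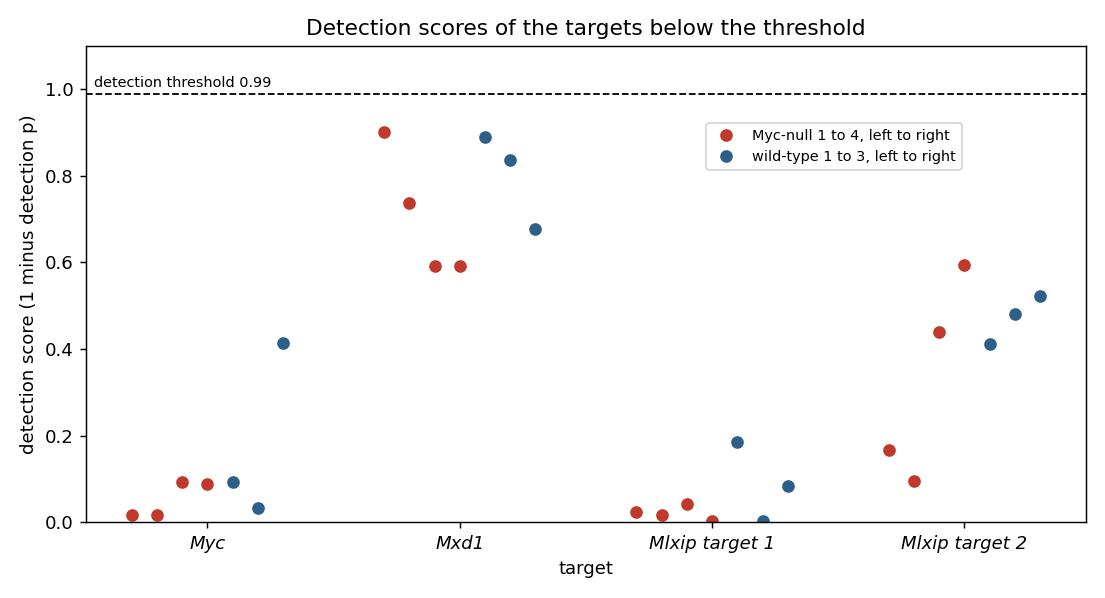
Detection score (1 minus the detection p-value, y axis) of the targets of Myc, Mxd1 and Mlxip on each of the 4 Myc-null and 3 wild-type arrays (x axis: target). Every point lies under the dashed threshold of 0.99, the highest being Mxd1 on Myc-null 1 at 0.902.

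Zbtb17 had the smallest p of the genes and a lower mean in Myc-null hearts. Its normalized signal was 632, 558, 538 and 652 in the Myc-null hearts, against 660, 767 and 750 in the wild-type hearts. The groups did not overlap, though Myc-null 4 and wild-type 1 were closer together than the bead SD of either array (41.4 and 34.5 after scaling). The means were 595 ± 55.5 in Myc-null (SD, n = 4) and 726 ± 57.4 in wild-type hearts (SD, n = 3). The log2 difference was -0.29 (SE 0.11, 95% interval -0.55 to -0.03, unadjusted p = 0.0361), with a limma adjusted p of 0.764, and it ranked 334 of 9441 targets by p. Groups that did not overlap occurred for 7.06% of tested targets, 2.81% with lower and 4.26% with higher Myc-null values. An unadjusted p under 0.05 came with a lower Myc-null mean for 1.99% and with a higher one for 3.41%. On the linear scale the exact permutation p was 0.0571.

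The Zbtb17 difference stayed between -0.40 and -0.23 in the 20 alternative fits, with limma adjusted p from 0.536 to 0.998 and unadjusted p from 0.0218 to 0.141. The groups were also apart after quantile normalization, median scaling and neqc. Without scaling between arrays they overlapped. Raw signals were 837, 676, 589 and 555 on the Myc-null arrays, against 774, 733 and 1036 on the wild-type arrays. Zbtb17 was among the steadier targets, with a log2 SD within groups of 0.13, at the 12.6th percentile of tested targets.

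**Figure D2:**
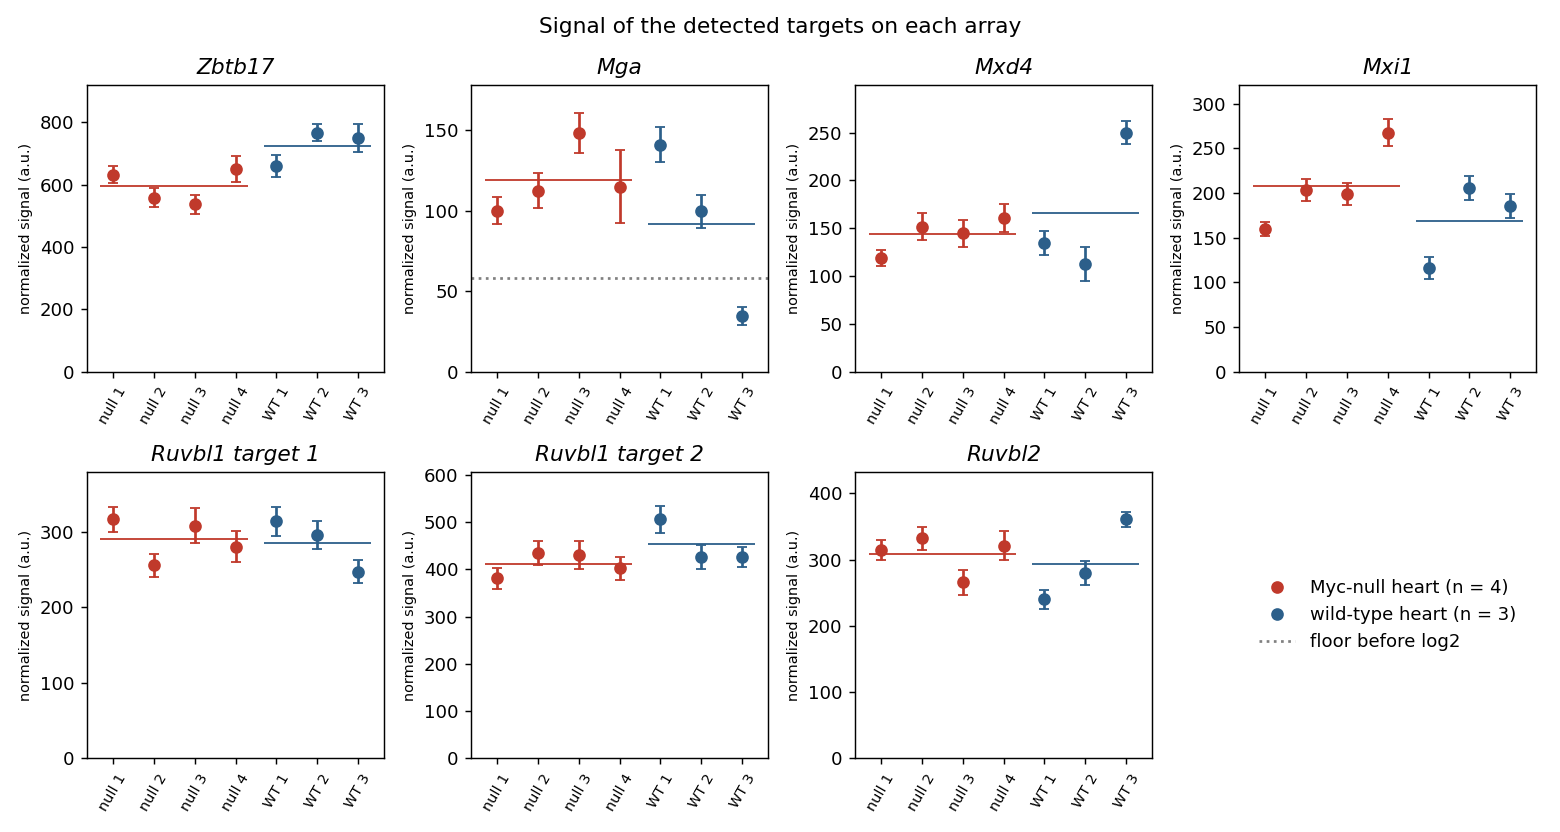
Normalized signal (arbitrary units, y axes from 0) of the 7 detected targets on each array (x axis), Myc-null in red and wild-type in blue. Bars are the bead SD as deposited, multiplied by the array's scale factor, horizontal lines are group means, and the dotted line for Mga is the floor of 58.2 set before log2. Zbtb17 shows 4 Myc-null points below the 3 wild-type points, and Mga (34.4) and Mxd4 (250) have their extreme value on wild-type 3.

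Mxi1, a Max-binding antagonist, had a higher mean in Myc-null hearts, by an amount that varied with the arrays included. Its signal was 160, 204, 199 and 268 in the Myc-null hearts, against 116, 206 and 185 in the wild-type hearts. Myc-null 4 was the highest and wild-type 1 the lowest, and the groups overlapped. The log2 difference was 0.31 (SE 0.25, 95% interval -0.29 to 0.91, limma adjusted p = 0.769), and it was 0.06 without wild-type 1, 0.18 without Myc-null 4 and 0.48 without wild-type 2. The raw signal of wild-type 1 (229) was also the lowest of the 7.

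Mxd4, the antagonist whose promoter window holds the E-box, was set by wild-type 3. Its signal was 119, 152, 145 and 161 in the Myc-null hearts, against 134, 113 and 250 in the wild-type hearts. The other 2 wild-type hearts lay within or under the Myc-null range. The log2 difference was -0.12 (SE 0.28, 95% interval -0.79 to 0.54, limma adjusted p = 0.918), and without wild-type 3 it was 0.22. The bead SD of wild-type 3, after scaling, was 12.1. Without wild-type 2, its lowest array among the wild-type hearts, the difference was -0.36.

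Mga, a large T-box protein that pairs with Max and is part of a Polycomb complex, had the opposite pattern on that array. Its signal was 100, 112, 148 and 115 in the Myc-null hearts, against 141, 99.6 and 34.4 in the wild-type hearts. The value of wild-type 3 was under the floor of 58.2, so the fold change understates that gap, and its detection score there (0.99) was just at the threshold. The log2 difference was 0.33 (SE 0.30, 95% interval -0.39 to 1.06, limma adjusted p = 0.794), and it was -0.01 without wild-type 3 and 0.63 without wild-type 1. It also moved with the floor, to 0.58 with the floor lowered to 29.1 and 0.00 with it raised to 116. Wild-type 3 was thus the lowest array for Mga and the highest for Mxd4, while its 18S reading was the highest of all. Summed markers were lowest on wild-type 3 for cardiac muscle (5 genes, 62750 to 96330 in Myc-null and 61880 to 82160 in wild-type hearts). The same held for erythroid cells (5 genes, 84730 to 122200 in Myc-null and 77480 to 92920 in wild-type hearts) and endothelium (3 genes, 2598 to 3139 in Myc-null and 1732 to 2893 in wild-type hearts). They were highest on wild-type 3 for mesenchyme and valve (6 genes, 8219 to 15170 in Myc-null and 12730 to 19050 in wild-type hearts), for epicardium (5 genes, 1238 to 1965 in Myc-null and 1354 to 2253 in wild-type hearts) and for 2 neural genes. For smooth muscle, cartilage, liver and leukocyte markers, other arrays were the lowest and the highest. Cartilage markers (2 genes) ran from 190 to 2287 in Myc-null and from 184 to 554 in wild-type hearts, with Myc-null 2 highest. Over all tested targets, wild-type 3 was the lowest array for 28.0% and the highest for 23.7%. The part of cell makeup and RNA quality in these readings was not tested.

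**Figure D3:**
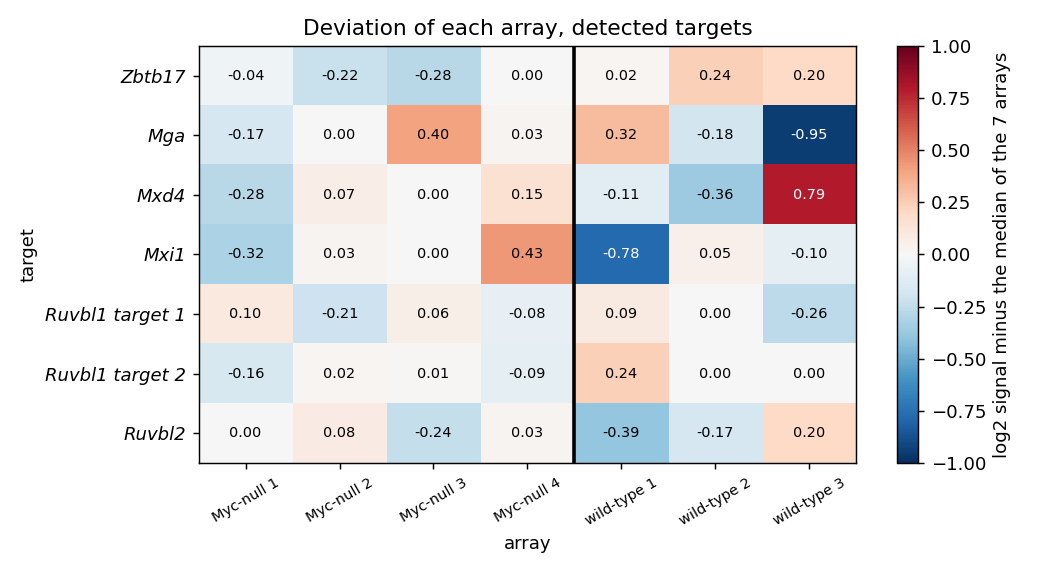
Deviation of each array's log2 signal from the median of the 7 arrays, for the 7 detected targets (rows) on the Myc-null arrays (left of the line) and wild-type arrays (right). The largest deviations are those of Mga (-0.95) and Mxd4 (0.79) on wild-type 3 and of Mxi1 (-0.78) on wild-type 1. The Mga signal on wild-type 3 was under the floor of 58.2, so its deviation is understated.

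Ruvbl1, the Pontin ATPase, was read by 2 targets, which allowed a check within each array. Target 1 read 317, 256, 308 and 281 in the Myc-null hearts, against 314, 296 and 248 in the wild-type hearts. Target 2 read 381, 435, 431 and 402 in the Myc-null hearts, against 506, 426 and 427 in the wild-type hearts. Both targets overlapped between genotypes, and they did not follow each other: Myc-null 1 was the highest array for target 1 and the lowest for target 2. The log2 difference was 0.02 for target 1 (SE 0.13, 95% interval -0.28 to 0.32, limma adjusted p = 0.971) and -0.13 for target 2 (SE 0.10, 95% interval -0.38 to 0.11, limma adjusted p = 0.766). Target 2 was at -0.05 without wild-type 1, -0.24 without scaling between arrays and -0.23 with arrays weighted by their fit (limma unadjusted p = 0.0466).

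The log2 ratio of Ruvbl1 target 2 over target 1, in which scaling cancels, was 0.27, 0.76, 0.48 and 0.52 on the Myc-null arrays, against 0.69, 0.53 and 0.79 on the wild-type arrays. Its mean was 0.51 ± 0.20 in Myc-null (SD, n = 4) and 0.67 ± 0.13 in wild-type hearts (SD, n = 3). The difference of -0.16 was within the spread (exact permutation p = 0.257), and it was -0.08 without Myc-null 1 and -0.24 without Myc-null 2. Among 332 genes with 2 or more tested targets the median gap in size was 0.16, and in 29.8% of them the targets differed in sign, as they did for Ruvbl1.

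Ruvbl2, the Reptin ATPase that forms rings with Ruvbl1, read 315, 332, 266 and 321 in the Myc-null hearts, against 240, 280 and 361 in the wild-type hearts. Wild-type arrays held both the lowest and the highest value. The log2 difference was 0.09 (SE 0.16, 95% interval -0.30 to 0.47, limma adjusted p = 0.896), and it was -0.05 without wild-type 1, 0.25 without wild-type 3 and 0.23 with array weights (limma unadjusted p = 0.0879). As folds, the intervals of Ruvbl1 target 1, Ruvbl1 target 2 and Ruvbl2 ran from 0.83 to 1.25, from 0.77 to 1.08 and from 0.81 to 1.38. Those of Mxd4, Mxi1 and Mga were wider, from 0.58 to 1.46, from 0.82 to 1.88 and from 0.76 to 2.08. All 6 intervals include a fold of 1.

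**Figure D4:**
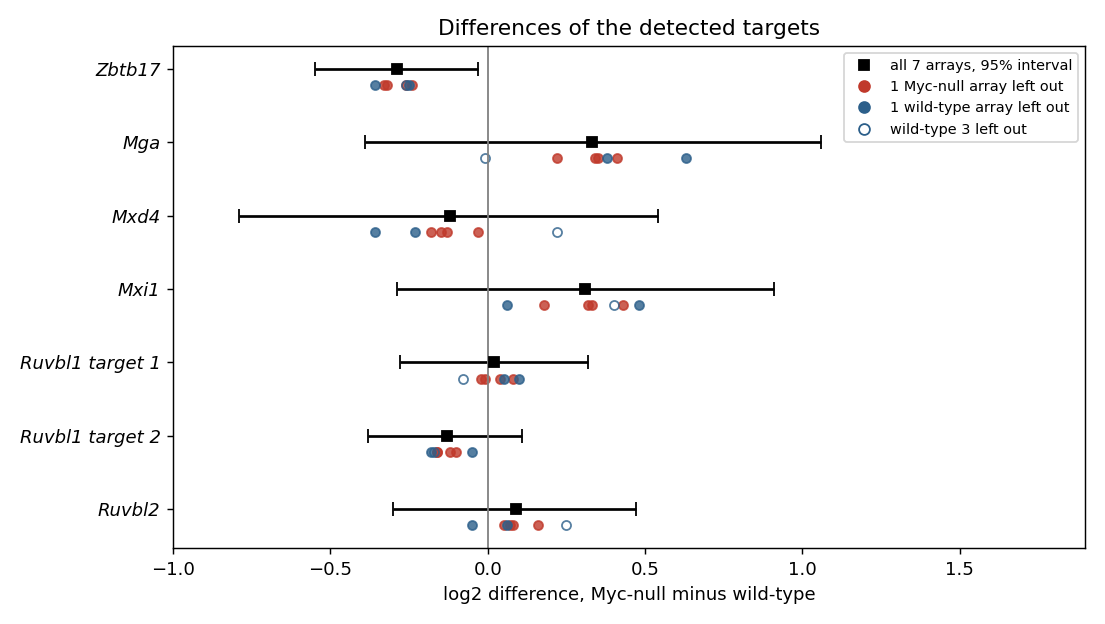
Log2 difference of the 7 detected targets, Myc-null minus wild-type (x axis), with the 95% interval over all 7 arrays (black) and the value with 1 array left out (circles, open for wild-type 3). The Zbtb17 values stay between -0.36 and -0.24, while Mga, Mxd4, Ruvbl1 target 1 and Ruvbl2 have values on both sides of 0.

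Over the 7 tested targets, 4 had higher and 3 had lower means in Myc-null hearts, against 54.4% higher and 44.8% lower over all tested targets. The median of their log2 differences was 0.02, against 0.03 over all tested targets. Of these 7 targets, 1 had groups that did not overlap, against 7.06% of all tested targets. Wild-type 3 was the lowest array for 2 of the 7 and the highest for 2, while over all tested targets it was lowest for 28.0% and highest for 23.7%. The authors' deposited table of difference scores, in which a size of 13 is the usual equivalent of p = 0.05, gave none of the 11 targets a score of that size. In the authors' deposited table the scores of these targets ran from -11.67 for Zbtb17 to 6.24 for Mxi1, without a stated direction, and 4.59% of tested targets reached 13 in size.

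Each tested target had 29 to 64 beads on an array, and its deposited bead SD was 2.49% to 8.90% of the raw signal. The SD between hearts of a genotype was 1.37 (Ruvbl1 target 2) to 3.63 (Mxi1) times the bead SD, against a median of 2.53 over tested targets and 1.18 over targets detected on 0 arrays. For Zbtb17 the ratio was 1.64. The steadiest members were Ruvbl1 target 2, Zbtb17 and Ruvbl1 target 1, with log2 SDs of 0.11, 0.13 and 0.16, and the least steady were Mxi1, Mxd4 and Mga, at 0.37, 0.41 and 0.45. The median over tested targets was 0.25.

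The genes nearest to each member in their array-to-array course were taken by the root mean square difference of centred log2 signals over the 7 arrays, among 2930 named targets above the floor throughout. A nearest gene always exists, so the distances are a description. Closest to Zbtb17 were Cope, a coatomer subunit (0.054), and Dph1, an enzyme of diphthamide synthesis (0.057). Closest to Ruvbl2 were the ribosomal protein gene Rpl13a (0.051) and Selenbp1 (0.072), and closest to Ruvbl1 target 2 were Tpm3 (0.077) and App (0.080). Mxi1 was most like Noct (0.103) and Cnot6l (0.130), and Mxd4 most like Klc1 (0.116) and Ccdc85b (0.123).

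Of the rest of the network (Max, Mycn, Mycl, Mxd3, Mnt, Mlx and Mlxipl), 0 of 7 genes had a target that could be named. Among other cofactors, 6 of 20 listed were tested, 3 higher and 3 lower in the Myc-null mean (median log2 difference -0.02), and 0 passed.

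Of genes of the complexes that hold Ruvbl proteins (TIP60, SRCAP, INO80 and R2TP), 14 of 36 were tested, 9 higher and 5 lower in the Myc-null mean and a median of 0.23 on the log2 scale, and 0 passed. Without wild-type 3 there were 7 higher and 7 lower, with a median of 0.00. Mbtd1, a TIP60 subunit, read 132 ± 26.9 in Myc-null (SD, n = 4) and 54.9 ± 45.4 in wild-type hearts (SD, n = 3), a log2 difference of 0.86 (SE 0.22, limma adjusted p = 0.764). The groups did not overlap, at 98.8 to 164 in Myc-null and 3.88 to 90.9 in wild-type hearts, with wild-type 3 lowest. Over all tested targets, 4.26% had groups apart with higher Myc-null values. The wild-type 3 reading was under the floor of 58.2, and Mbtd1 was detected on 6 of the 7 arrays. Its difference was 0.70 without wild-type 3. With the floor raised to 116, 0 genes of this list had an unadjusted limma p under 0.05, against 1 at the main floor. The counts over all 9441 tested targets were 391 at the raised floor and 510 (5.4%) at the main floor. Ino80e, an INO80 subunit, differed by -0.26, and by -0.17 without wild-type 3.

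Of genes that control the stability of Myc protein, 4 of 15 were tested, 3 higher and 1 lower in the Myc-null mean (median 0.12), and 0 passed. Fbxw7, the ubiquitin ligase subunit that marks Myc for destruction, differed by 0.36 and by 0.14 without wild-type 3. Usp36, a nucleolar deubiquitinase, differed by 0.15, by 0.06 without wild-type 1 and by 0.23 without wild-type 3.

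Textbook genes that Myc activates gave 16 tested of 30 listed, 10 higher and 6 lower in the Myc-null mean (median log2 difference 0.08), and 0 passed. Without wild-type 3 the split was 6 higher and 10 lower (median -0.02). Pcna, the sliding clamp of DNA replication, had groups that did not overlap, at 194 to 280 in Myc-null and 165 to 190 in wild-type hearts. Groups apart with higher Myc-null values occurred for 4.26% of all tested targets. The log2 difference of Pcna was 0.41 (SE 0.15, limma adjusted p = 0.764) and it stayed between 0.32 and 0.49 when each array was left out. Hspe1, a mitochondrial chaperonin, differed by 0.50, and by 0.38 without wild-type 3. Of this list, 6 of 15 genes with a promoter window held CACGTG, against 11.9% of tested genes with a window. The motif was in 3 of 11 genes of the Ruvbl complexes and 1 of 3 genes repressed by Myc. It was in 0 of 3 cofactor genes and 0 of 4 genes of Myc turnover.

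Textbook genes that Myc represses, many of them through Zbtb17, gave 3 tested of 17 listed, 0 higher and 3 lower in the Myc-null mean (median -0.06), and 0 passed. Cdkn1a, the cell cycle inhibitor p21 and a direct Zbtb17 gene, had 2 targets that differed by -0.06 (SE 0.12) and -0.38 (SE 0.27). The larger of these was -0.22 without Myc-null 2 and -0.55 without Myc-null 4. Klf6, a zinc finger factor, differed by -0.31, by -0.10 without Myc-null 1 and by -0.56 without Myc-null 4. The median of the list was -0.27 without wild-type 1, -0.22 without scaling between arrays and -0.03 without Myc-null 3. Without wild-type 3 the split was 1 higher and 2 lower, with a median of -0.11. Over all tested targets, 44.8% had lower Myc-null means.

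**Figure D5:**
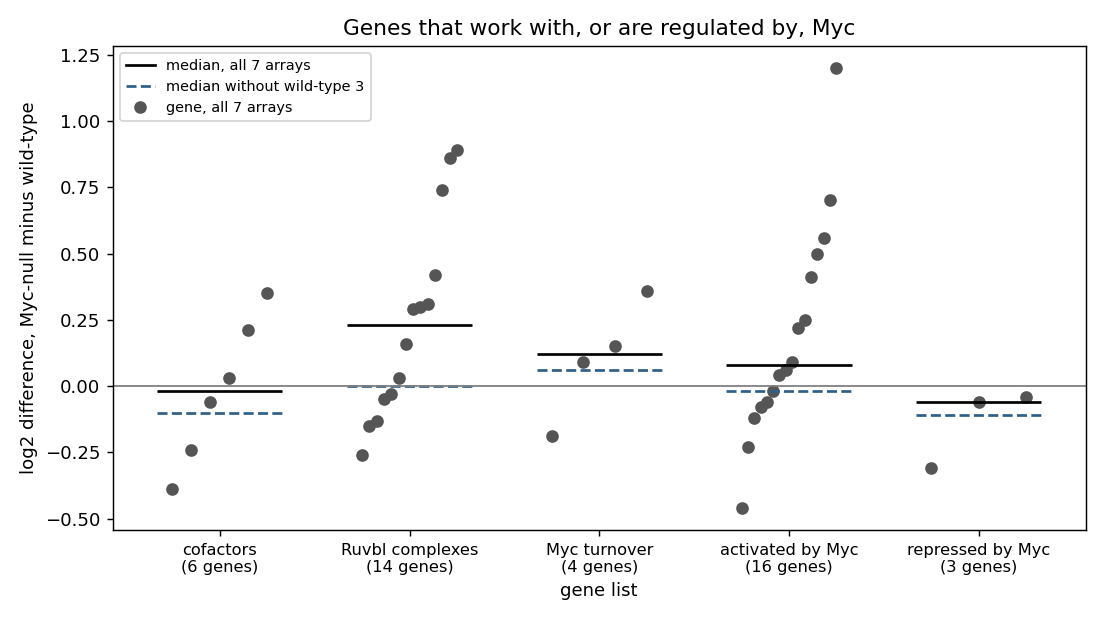
Log2 difference, Myc-null minus wild-type (y axis), of the tested genes of 5 lists (x axis), each gene by its brightest target, with the list's median over all 7 arrays (solid) and without wild-type 3 (dashed). The median of the Ruvbl complexes is 0.23 with and 0.00 without wild-type 3, and that of genes activated by Myc is 0.08 with and -0.02 without it.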

How the data were processed

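Total RNA (100 ng, per the series' design text) from 4 Myc-null and 3 wild-type hearts was hybridised to 7 Illumina mouse arrays. Each array's file (BeadStudio 1.5.1.3, per the file headers) gives raw signal intensity, bead SD and bead number. The detection score is a deposited fraction, 1 minus the p-value of detection. Normalized intensity in the authors' deposited matrix is rank-invariant (BeadStudio 1.5.0.34, per the submitters' processing notes), a straight line of each raw array with factors from 0.809 to 1.43. The authors' deposited table of difference scores does not state its direction. The bead SD fell from 8.9 at a median of 19 beads to 5.6 at 63 beads, as a standard error would, so it was not divided further, although that had been planned. No aligner or build applies, and depth is not defined for arrays: their number limits the precision.

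The deposited intensity was floored at 58.2 (each array's 5th percentile of detected targets, median of 7), taken to log2 and fitted with limma 3.58.1 in R 4.3.3 (lmFit, eBayes, group as the only term). Every target detected on at least 3 of 7 arrays was tested as its own unit, with 4 control targets left out. Fold changes on this scale understate changes of dim targets. Lists count each gene by its brightest target and were not tested as sets. The genes named are the members, the 2 genes of each list with the smallest p (those of the cofactor list are not reported here), and the 2 most alike in course to each member above the floor throughout. Members, lists and alternatives were chosen with earlier results of these data known. Gene names rest on the identifier lookup, which named 8893 of 24048 targets. Sequences are RefSeq's (GRCm38.p6). The fit was also run on the measured arrays with their group differences removed and known changes added. It returned the added sizes, as a linear fit must, so this run checks the code only. Alternatives were 3 other scalings, neqc, 2 other floors, 3 other filters, 1 target per gene, array weights, a replicate block, and arrays left out. The scalings started from raw intensity minus the deposited background. Replicate numbers were not used as pairs in the main fit. Deviations of same-numbered arrays from their group means correlated at 0.17, -0.26 and -0.32. With so few arrays these values cannot exclude a pairing that the labels do not give.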

Additional observations from a re-analysis of the deposited data

How the results depend on the processing

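The count of 0 called targets by limma held in all 20 alternatives, with smallest adjusted p from 0.069 (floor doubled to 116) to 0.977, and targets at an unadjusted p under 0.05 numbered 237 without scaling between arrays and 327 (without Myc-null 2) to 746 (without wild-type 2) with 1 array left out. Zbtb17, Mxi1 and Ruvbl1 target 2 kept their direction in all 20 fits, at -0.40 to -0.23, 0.06 to 0.48 and -0.24 to -0.05 in that order. Mga was at 0.58 with the floor lowered to 29.1 and 0.00 with it raised to 116. Without scaling, Ruvbl2 was at -0.02 and Ruvbl1 target 1 at -0.08, and Ruvbl1 target 1 was at -0.06 after quantile normalization, -0.05 after median scaling and -0.06 after neqc. With array weights, where wild-type 3 had the lowest weight (0.201), Mxd4 was at 0.04, Mga at -0.06 and Ruvbl1 target 1 at -0.01. Without both wild-type 3 and Myc-null 2, Mxd4 was at 0.19 and Ruvbl1 target 1 at -0.02. With 1 array left out, Mxd4 ranged from -0.36 to 0.22, Mga from -0.01 to 0.63, Ruvbl1 target 1 from -0.08 to 0.10 and Ruvbl2 from -0.05 to 0.25. Signal differences of targets that were not detected also turned. Myc ranged from -11.8 to 2.51 and Mlxip target 1 from -14.7 to 1.28 with 1 array left out. Without both arrays Myc was at 2.82 and Mlxip target 2 at 0.427. List medians moved for the Ruvbl complexes (0.06 with array weights, -0.02 without both arrays, 0.00 to 0.25 with 1 array left out), for Myc turnover (-0.03 with array weights, 0.01 to 0.17 with 1 array left out), for the cofactors (-0.13 to 0.04 with 1 array left out), for genes repressed by Myc (-0.22 without scaling, -0.27 to -0.03 with 1 array left out) and for genes activated by Myc (-0.03 without scaling, -0.02 to 0.21 with 1 array left out). With a replicate block, in which Myc-null 4 has no partner, 0 targets were called, 386 had an unadjusted p under 0.05 and no member turned direction. Other causes of these shifts were not tested. A signal near background limits what can be said of Myc, Mxd1 and Mlxip.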
